A study of Caenorhabditis elegans with 3 samples.

Results

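Messenger RNAs that an oocyte stores for the embryo are held in particles of RNA and repressor proteins, and 7 genes that encode proteins of such particles were followed here through 12 germline libraries of Caenorhabditis elegans. They were chosen with earlier results of these data known and were found in the table by sequence name: cgh-1 (C07H6.5), car-1 (Y18D10A.17), ifet-1 (F56F3.1), cey-2 (F46F11.2), cey-3 (M01E11.5), cey-4 (Y39A1C.3) and laf-1 (Y71H2AM.19). They are 7 of 45836 gene entries in the deposited table, and all 7 passed the low-value filter that left 11345 genes to test. In the WBcel235 annotation cgh-1, ifet-1, cey-4 and laf-1 lie on chromosome III and car-1, cey-2 and cey-3 on chromosome I.

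CGH-1 is the worm member of the DDX6 family of DEAD-box RNA helicases, which hold mRNAs silent and, in the germline, protect stored maternal mRNAs from decay. CAR-1, an Sm-like protein of the LSM14 family, and the Y-box proteins CEY-2, CEY-3 and CEY-4, which coat mRNA through a cold-shock domain, are found in the same particles. IFET-1 is the homologue of the eIF4E-binding repressor 4E-T, and LAF-1 is a DEAD-box helicase of the DDX3 family that forms condensates and is a component of P granules.

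The libraries came from wild-type N2 hermaphrodites fed bacteria that make double-stranded RNA, in 3 groups of 4 (4 biological replicates each, per the series design): RNA interference (RNAi) against csr-1 from an Ahringer library clone, combined RNAi against P granule components by a published mixture, and the empty vector L4440 in HT115 bacteria. csr-1 encodes a germline Argonaute that binds small RNAs antisense to expressed germline genes, and the mixture is known to target the scaffold genes pgl-1 and pgl-3 and the helicase genes glh-4 and glh-1. Feeding began in first-stage larvae at 24 °C, and gonads of their young adult progeny were cut at the bend and pooled, 400 to 500 to a replicate, for poly(A) RNA sequencing. Libraries are called orig, 1, 2 and 3 within a group; the meaning of orig was not given in the sources used here, and p-values measure the spread between such pools. RNAi by feeding lowers its target without deleting it: csr-1 had 3836 ± 1566 normalised reads under csr-1 RNAi and 23553 ± 1583 with empty vector (SD, n = 4 each). With P granule RNAi csr-1 had 15509 ± 1075, below all empty vector libraries, as 7.06% of all genes were. That difference did not pass the test (log2 fold change −0.60, limma adjusted p = 0.317). Under P granule RNAi pgl-1, pgl-3 and glh-4 fell against empty vector (log2 fold change −3.25, −2.65 and −2.22, limma adjusted p = 3.01e-06, 3.01e-06 and 1.97e-05). glh-1 did not pass the test and its groups overlapped, at 17104 ± 1133 normalised reads under P granule RNAi and 24978 ± 5555 with empty vector (−0.52, limma adjusted p = 0.299).

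Between 18.4 and 31.9 M (megareads) per library fell in genes. Markers of oocytes, sperm, gonadal sheath, and stem and meiotic germ cells were all detected, none at 0 throughout a group, as were markers of cuticle, muscle, intestine and neurons. Some libraries stood apart by transcript length. In csr-1 replicate 3 the median deviation of a gene from its mean over the 12 libraries was −0.70 (log2) for genes with 3 kb or more of exon and 0.32 for those under 1.5 kb, a gap of −1.02. The gap was 0.61, −0.11 and −0.02 in csr-1 libraries orig, 1 and 2, ran from −0.49 to 0.09 under P granule RNAi, and from 0.19 to 0.63 with empty vector. No P granule RNAi library therefore reached the range of the empty vector libraries, while csr-1 library orig lay within it.

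Under csr-1 RNAi, transcripts of 3 of the 7 genes fell: cgh-1, ifet-1 and laf-1. None of the 7 passed the test in the other direction. Across all 11345 genes tested 14.8% were called in this comparison, 7.8% lower and 6.98% higher, so the 3 of 7 stand against 7.8% (limma on log2(value + 1), Benjamini-Hochberg adjusted p under 0.05). At an unadjusted p under 0.05, 4 of the 7 were lower and 1 was higher, a threshold at which no share of all genes is given here. edgeR called 3 lower and 0 higher, where 753 of all genes were lower and 840 higher. DESeq2 called 4 lower and 0 higher, where 1098 of all genes were lower and 1358 higher. The median log2 fold change of the 7 was −0.48, and that of all genes tested was 0.02. In these bulk gonads fewer cells of a type and less RNA per cell cannot be told apart.

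cgh-1 had 63564, 57138, 63756 and 58384 normalised reads (reads divided by the library's size factor) in csr-1 RNAi libraries orig, 1, 2 and 3. It had 103247, 104123, 78353 and 80087 in the P granule RNAi libraries and 119688, 109713, 116432 and 89067 with empty vector. All 4 csr-1 libraries lay below every library of the other groups, as 11.7% of all genes did in the comparison with empty vector, while P granule RNAi and empty vector overlapped. The csr-1 libraries were also close to each other, with a coefficient of variation of 5.67%. Against empty vector the log2 fold change was −0.83 (SE 0.14, limma adjusted p = 0.00264), and leaving out any 1 of the 12 libraries kept it between −0.93 and −0.78 and past the threshold.

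ifet-1 had 24973, 22013, 24471 and 18070 normalised reads under csr-1 RNAi. It had 28912, 26861, 22747 and 21759 under P granule RNAi and 35519, 35690, 39307 and 29664 with empty vector. Both RNAi groups lay wholly below the empty vector libraries, as 11.7% of all genes did under csr-1 RNAi and 7.06% under P granule RNAi. The RNAi groups overlapped each other. Only the csr-1 difference passed the test (log2 fold change −0.65, SE 0.14, limma adjusted p = 0.0108).

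laf-1 was the least abundant of the 7. Its values were 3802, 3670, 4231 and 3861 normalised reads under csr-1 RNAi, 4413, 5916, 5036 and 4273 under P granule RNAi, and 6088, 7747, 7907 and 6595 with empty vector. The 3 groups formed steps without overlap, csr-1 RNAi lowest and empty vector highest. Of all genes, 11.7% lay wholly below empty vector under csr-1 RNAi and 7.06% under P granule RNAi. Between the RNAi groups 7.9% lay wholly lower in csr-1 RNAi. The fall under csr-1 RNAi was −0.86 on the log2 scale (SE 0.13, limma adjusted p = 0.00142).

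car-1, which encodes the LSM14-family partner of CGH-1, did not pass the test. It had 62792, 62968, 57662 and 64408 normalised reads under csr-1 RNAi, 70268, 82765, 55840 and 58118 under P granule RNAi, and 83709, 71253, 77973 and 56885 with empty vector. The groups overlapped, with empty vector replicate 3 below all 4 csr-1 libraries. The log2 fold change against empty vector was −0.21 with a 95% interval from −0.55 to 0.12 (limma adjusted p = 0.395), so a decrease of the size seen for cgh-1 lies outside the interval.

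The ratio of cgh-1 to car-1 reads within a library does not depend on the size factors. It was 1.01, 0.907, 1.11 and 0.907 in the csr-1 RNAi libraries, 1.47, 1.26, 1.403 and 1.38 in the P granule RNAi libraries, and 1.43, 1.54, 1.49 and 1.57 with empty vector. The csr-1 libraries were below all 8 others for these partners, whose transcripts differ in length. The pair was chosen after its values were seen, and no share of other gene pairs is given here.

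The Y-box genes differed among themselves. cey-4 had 12213, 14770, 12125 and 14487 normalised reads under csr-1 RNAi, against 17776, 25845, 17543 and 17210 under P granule RNAi and 20551, 19937, 19962 and 14590 with empty vector. Only empty vector replicate 3 reached down into the csr-1 range. The log2 fold change of −0.48 (SE 0.16) missed the threshold (limma adjusted p = 0.0678, 95% interval −0.83 to −0.13). It passed with DESeq2 (adjusted p = 0.0373), without empty vector replicate 3 (limma adjusted p = 0.0315) and without P granule replicate 1 (limma adjusted p = 0.0252). In 10 of the 12 fits that left out 1 library it stayed uncalled (limma adjusted p up to 0.169). Without the 3 libraries named orig it also stayed uncalled (−0.39, limma adjusted p = 0.192).

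cey-3 had 28874, 43712, 41176 and 61296 normalised reads under csr-1 RNAi, 31568, 48982, 41751 and 40708 under P granule RNAi, and 32599, 33166, 32768 and 25055 with empty vector. In each RNAi group 3 of 4 libraries exceeded all empty vector libraries and the library orig did not. The csr-1 spread was the widest of any member and group, a coefficient of variation of 30.5%. The log2 fold change was 0.46 (SE 0.21, limma adjusted p = 0.173), and it passed without csr-1 library orig (0.64, limma adjusted p = 0.0349) or without all 3 libraries named orig (0.67, limma adjusted p = 0.0422). Without csr-1 replicate 3, the highest csr-1 library for cey-3, it stood at 0.28 (limma adjusted p = 0.374).

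cey-2, the most abundant of the 7 per length, had 64383, 80296, 73451 and 99485 normalised reads under csr-1 RNAi, 70896, 107519, 83348 and 76209 under P granule RNAi, and 84169, 80627, 77706 and 70711 with empty vector. The empty vector values sat inside the csr-1 range and, replicate 3 excepted, inside the P granule RNAi range. The 95% interval of the csr-1 log2 fold change ran from −0.35 to 0.36.

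cey-2 and cey-3 are near relatives. Reads without a unique alignment were left out of the counts, and how many of them came from these genes was not tested. The ratio of cey-3 to cey-2 reads was 0.449, 0.544, 0.561 and 0.616 under csr-1 RNAi, 0.445, 0.456, 0.501 and 0.534 under P granule RNAi, and 0.387, 0.411, 0.422 and 0.354 with empty vector. All 8 RNAi libraries exceeded all 4 empty vector libraries. For cey-4 over cey-2 the ratio was 0.146 to 0.190 under csr-1 RNAi, 0.211 to 0.251 under P granule RNAi and 0.206 to 0.257 with empty vector, lowest in csr-1 RNAi without overlap. These pairs too were chosen after their values were seen, with no share of other gene pairs given here.

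**Figure D1:**
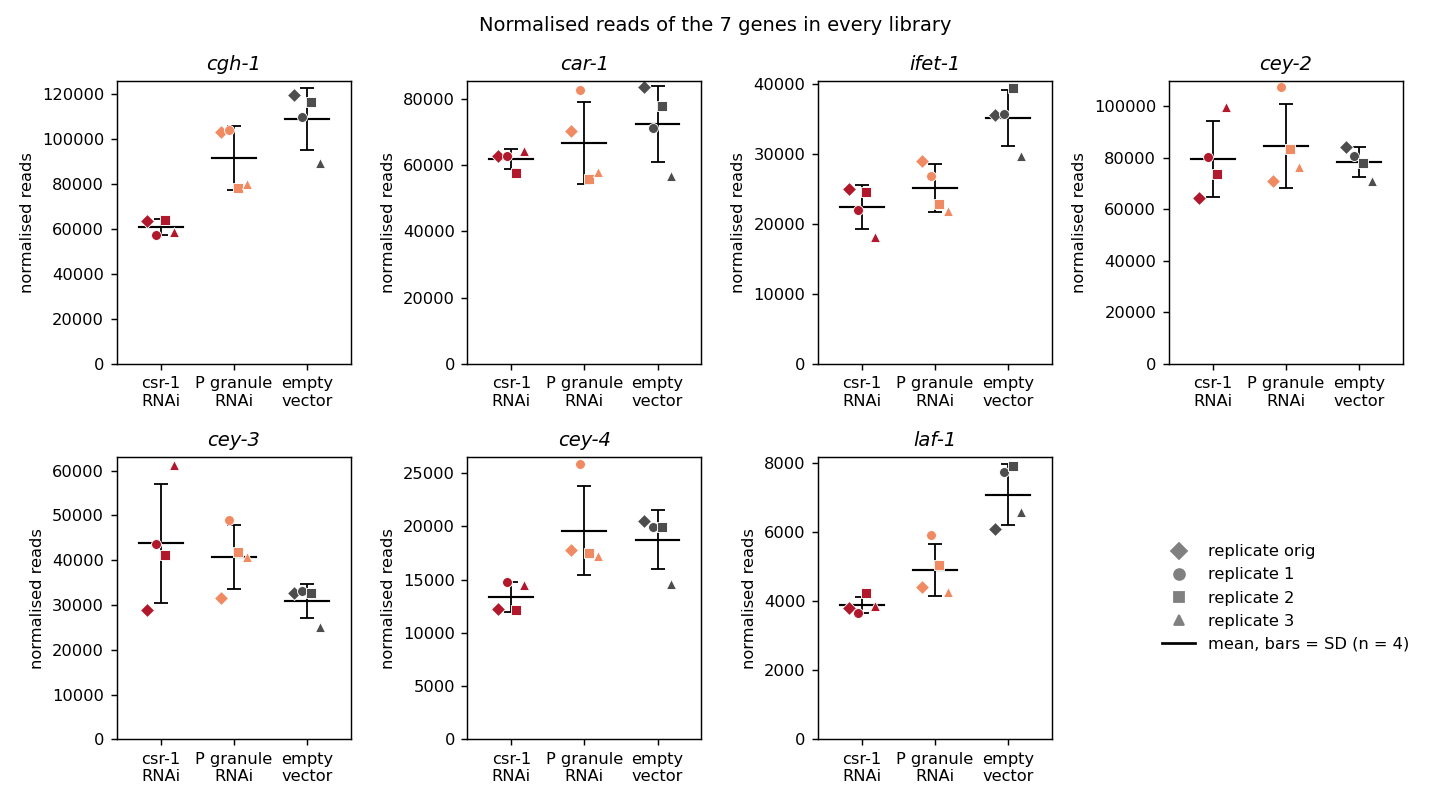
Each panel gives the normalised reads of 1 gene (vertical axis, from 0) in the 4 libraries of csr-1 RNAi, P granule RNAi and empty vector, with the group mean and SD as lines. The csr-1 points lie apart from empty vector for cgh-1, ifet-1 and laf-1, while the cey-2 and car-1 groups overlap.

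**Figure D2:**
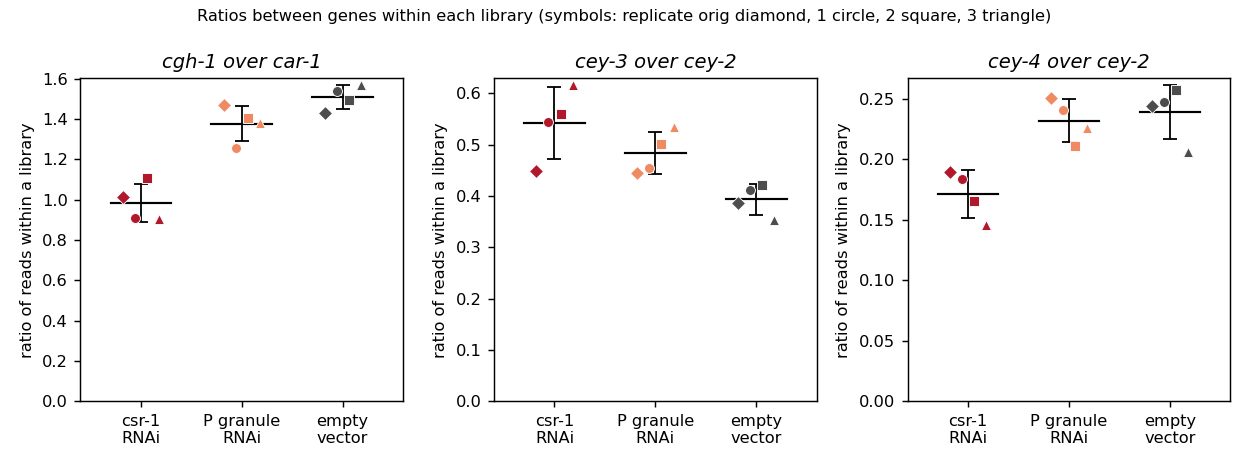
Ratios of reads of 2 genes within each library (vertical axis, from 0) are shown by group, with mean and SD. The cgh-1 over car-1 and cey-4 over cey-2 ratios are lowest under csr-1 RNAi without overlap, and the cey-3 over cey-2 ratio is lowest with empty vector. The pairs were chosen after their values were seen.

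The 3 genes that fell have the longest exon sequence of the 7: 2273 bases for cgh-1, 3317 for ifet-1 and 3657 for laf-1, against 990 for cey-3, 1011 for cey-2, 1183 for cey-4 and 1422 for car-1 (all annotated exons of a gene merged, WBcel235). Over all genes tested the csr-1 log2 fold change had a median of 0.19 under 1.5 kb, −0.10 from 1.5 to 3 kb and −0.42 at 3 kb or more, and 3.56%, 10.9% and 16.5% of genes in these ranges were called lower. Among the 559 genes with 2199 to 2466 exon bases the median was −0.11 and the lower quartile −0.45, so cgh-1 at −0.83 lay beyond it. ifet-1 (−0.65, lower quartile of its length range −0.58) and laf-1 (−0.86, lower quartile −0.68) lay below theirs by less. cey-4 also lay below the lower quartile of its range (−0.48 against −0.17).

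With a smooth length trend removed from every library, an alternative chosen after seeing the data, 3 members were again called lower, but not the same 3. cgh-1 (log2 fold change −0.68, limma adjusted p = 0.00413) and ifet-1 (−0.35, limma adjusted p = 0.0335) kept their calls, cey-4 gained one (−0.55, limma adjusted p = 0.0346) and laf-1 lost its call (−0.52, limma adjusted p = 0.078). Without csr-1 replicate 3, the library with the largest length gap, cgh-1 (−0.81), ifet-1 (−0.55) and laf-1 (−0.85) were all called by limma (adjusted p = 0.0045, 0.0203 and 0.00221).

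**Figure D3:**
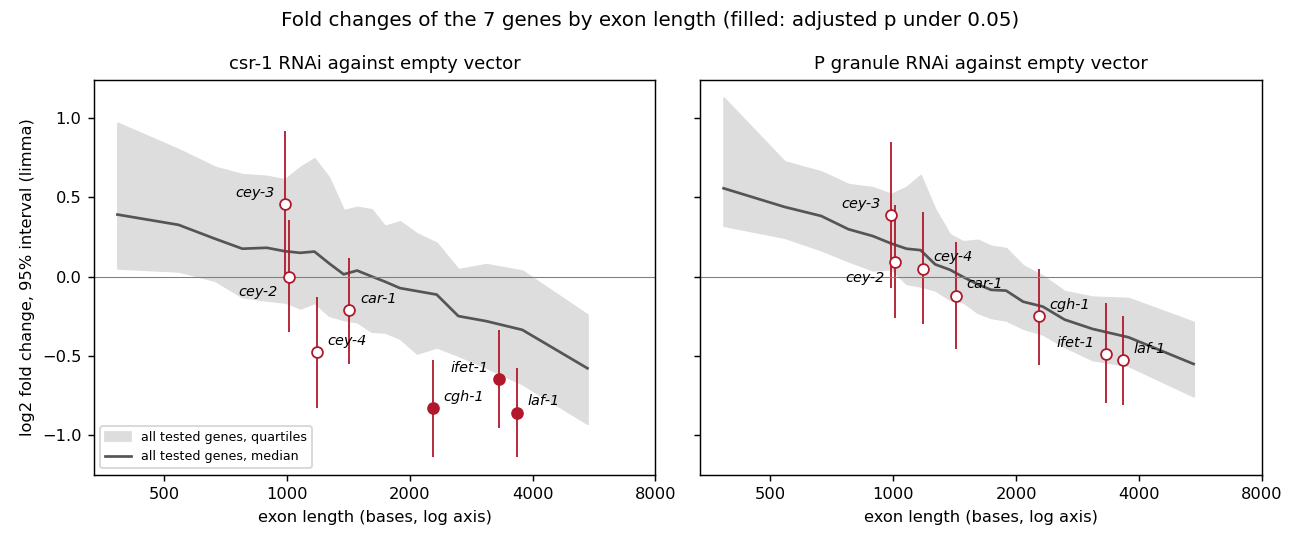
The log2 fold change of each of the 7 genes with its 95% interval is plotted against exon length in bases (log axis), over the median and quartiles of all tested genes in 20 length ranges. Under csr-1 RNAi cgh-1, cey-4, ifet-1 and laf-1 lie below the lower quartile of genes of their length, and under P granule RNAi all 7 lie within the quartiles.

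Of the scalings tried, quantile normalisation ended the calls of cgh-1 and ifet-1. With TMM factors they stood at −0.82 and −0.64 (limma adjusted p = 0.00293 and 0.0136), and both were also called by edgeR with TMM or RLE factors and by DESeq2. With quantile normalisation, which forces all libraries to 1 distribution, cgh-1 stood at −0.58 (limma adjusted p = 0.0685) and ifet-1 at −0.50 (limma adjusted p = 0.0576), while cey-2 and cey-3 were called higher (0.32 and 0.72, limma adjusted p = 0.0238 and 0.000344) and cey-4 lower (−0.46, limma adjusted p = 0.0164). laf-1 stayed at −0.86 (limma adjusted p = 0.000408). In the authors' deposited table, where 5.16% of 19023 genes had an adjusted p under 0.05, no member passed: the ratio of csr-1 RNAi to empty vector was 0.558 for cgh-1 (adjusted p = 0.614), 0.549 for laf-1 (adjusted p = 0.599) and 0.639 for ifet-1 (adjusted p = 0.894). The ratios in that table are the ratios of the group means of the values used here, and its p-values come from DESeq.

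Some sums of the germline marker lists differed between csr-1 RNAi and empty vector. Calls of these genes under csr-1 RNAi stand beside 6.98% higher and 7.8% lower of all genes by limma. By edgeR 840 of 11345 genes were higher and 753 lower, and by DESeq2 1358 and 1098. Summed markers of germline stem and meiotic cells (12 genes) ran from 55594 to 70020 normalised reads under csr-1 RNAi, 58402 to 79362 under P granule RNAi and 73729 to 88834 with empty vector, without overlap between csr-1 RNAi and empty vector. The mean log2 value of the same 12 genes did overlap, at 11.54 to 11.97 under csr-1 RNAi and 11.82 to 12.01 with empty vector. Of these 12, 2 were called lower and 1 higher under csr-1 RNAi, beside 7.8% and 6.98% of all genes. The 2 were gld-1 and nos-3, with group means of 23418 and 5426 normalised reads under csr-1 RNAi. With empty vector those means were 39732 and 9099. The 1 called higher was him-3 (0.48, limma adjusted p = 0.0369). With the length trend removed limma called 3 of the 12 higher and 2 lower. Summed sperm markers (37 genes) ran from 3462 to 41956 under csr-1 RNAi, highest in replicate 3, from 5211 to 22824 under P granule RNAi and from 2085 to 6084 with empty vector. Of 36 sperm markers tested 2 were called higher under csr-1 RNAi by limma, 5 by edgeR and 18 by DESeq2. The median log2 fold change was 1.50 under csr-1 RNAi and 1.90 under P granule RNAi. Under P granule RNAi limma, edgeR and DESeq2 called 0 of them. There 7 had an unadjusted p under 0.05, a threshold at which no share of all genes is given here. The sperm sum of csr-1 library orig, 3462, lay within the empty vector range. Summed oocyte markers (12 genes) overlapped between groups, at 345956 to 407884 under csr-1 RNAi, 341997 to 560119 under P granule RNAi and 402222 to 518752 with empty vector, so that csr-1 RNAi met the empty vector range only at its low end. Of the 12 oocyte markers 2 were called lower under csr-1 RNAi, cbd-1 (−0.64, limma adjusted p = 0.0198) and lin-41 (−0.55, limma adjusted p = 0.0455), and 0 higher; edgeR called 1 lower, DESeq2 3, and limma 0 with the length trend removed. The part of these marker sums in the falls of cgh-1, ifet-1 and laf-1 was not tested.

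Under P granule RNAi none of the 7 was called by limma or edgeR, where 0.0617% of all genes were. At an unadjusted p under 0.05, 2 of the 7 were lower and 0 higher, with no share of all genes given here at that threshold. DESeq2 called 1, laf-1 (adjusted p = 0.0321), where it called 92 of all genes. The 2 were laf-1 (log2 fold change −0.53, SE 0.13, limma adjusted p = 0.255) and ifet-1 (−0.49, SE 0.14, limma adjusted p = 0.284), whose 4 libraries all lay below all empty vector libraries, as 7.06% of all genes did. cgh-1 had −0.25 (95% interval −0.56 to 0.05), cey-3 0.39 (−0.07 to 0.85), and the median of the 7 was −0.12 against 0.03 for all genes.

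All 7 values under P granule RNAi lay within the quartiles of genes of their own length. For laf-1 the median of its length range was −0.38 and for ifet-1 −0.33, and for the short cey-2 and cey-3 it was 0.21. With the length trend removed laf-1 stood at −0.14 and ifet-1 at −0.12, and 0 of the 7 had an unadjusted p under 0.05.

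The RNAi groups share the same empty vector libraries, so they were also compared with each other. cgh-1 was the only member called, lower in csr-1 RNAi (log2 fold change −0.58, SE 0.14, limma adjusted p = 0.0223), where 9.52% of all genes were called, 4.27% lower and 5.25% higher. The medians by length were close in this comparison, −0.02 at 3 kb or more and −0.07 under 1.5 kb. cgh-1 kept its call with the length trend removed (−0.64, limma adjusted p = 0.00728). It lost the call with quantile normalisation (−0.29, limma adjusted p = 0.452), with only the 2 groups fitted (adjusted p = 0.0592), without the libraries named orig (adjusted p = 0.113), and without P granule library orig or csr-1 replicate 1 or 2 (adjusted p = 0.0627, 0.0731 and 0.0525).

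cey-4 (log2 fold change −0.53, SE 0.16, limma adjusted p = 0.0592) and laf-1 (−0.33, SE 0.13, limma adjusted p = 0.151) were below all P granule RNAi libraries in all 4 csr-1 libraries without passing the test. cey-4 passed with quantile normalisation (−0.57, limma adjusted p = 0.00701), with DESeq2 (−0.54, adjusted p = 0.0208), and without empty vector replicate 3 (limma adjusted p = 0.0431) or csr-1 replicate 3 (limma adjusted p = 0.0392). In 10 of the 12 fits that left out 1 library it stayed uncalled (limma adjusted p up to 0.162). With cgh-1 that made 3 of 7 genes wholly lower, beside 7.9% of all genes. ifet-1 (−0.17), car-1 (−0.09), cey-2 (−0.09) and cey-3 (0.07) had 95% intervals that spanned 0.

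**Figure D4:**
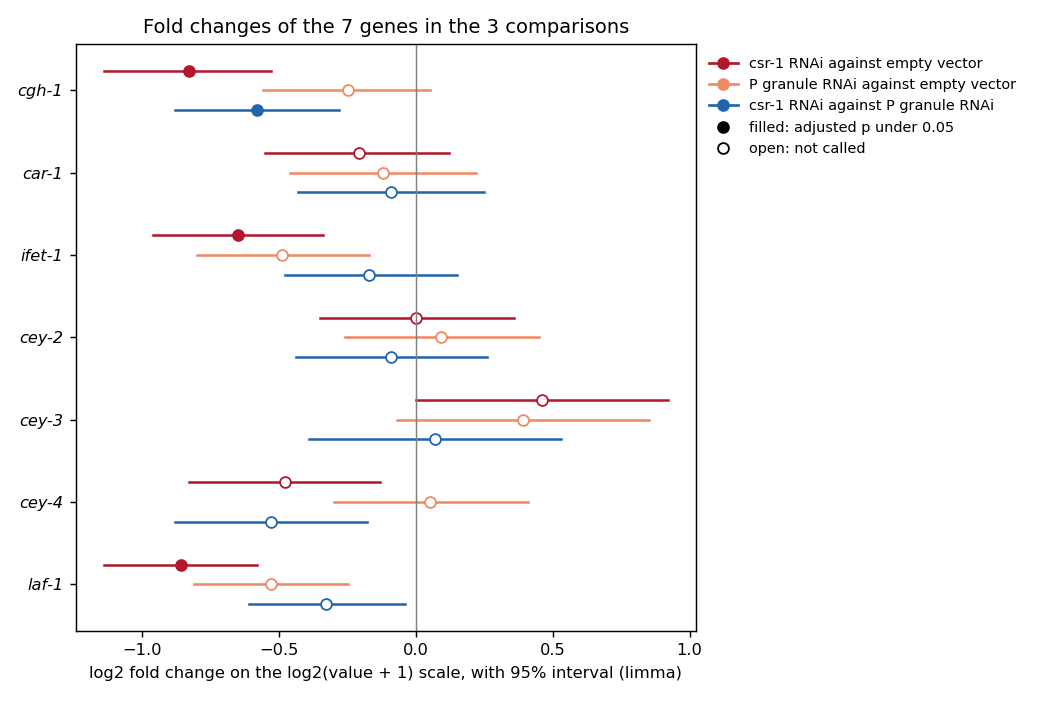
The log2 fold change of each gene with its 95% interval from limma is shown for csr-1 RNAi against empty vector, P granule RNAi against empty vector and csr-1 RNAi against P granule RNAi. Filled points passed the adjusted p threshold: cgh-1, ifet-1 and laf-1 in the first comparison and cgh-1 in the last.

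Per length, the 7 transcripts ranked from cey-2 down to laf-1 in empty vector gonads. In TPM, computed from the recovered reads and exon lengths, cey-2 had 3969 ± 163 and ranked 43 of 11220 genes, followed by car-1 at 2605 ± 333, cgh-1 at 2447 ± 224, cey-3 at 1596 ± 141, cey-4 at 810 ± 91.1, ifet-1 at 541 ± 43.5 and laf-1 at 99.3 ± 11.18, rank 1841 (SD, n = 4). car-1 and cgh-1 did not differ beyond their spread and the other neighbours in this order were separated by more than their SDs. Under csr-1 RNAi cgh-1 stood at 1414 ± 258 on this scale, below cey-3 at 2256 ± 365. The 7 genes together took 1.12% to 1.33% of gene reads under csr-1 RNAi, 1.29% to 1.48% under P granule RNAi and 1.27% to 1.58% with empty vector.

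Across the 12 libraries, genes whose log2 values were most like each member were found among 6823 genes with a mean of at least 100. For cgh-1 they were lip-1, a MAP kinase phosphatase gene (Pearson r = 0.982), clp-7, a calpain gene (0.981), and gld-1, which encodes a translational repressor of the meiotic germline (0.970). Their csr-1 log2 fold changes were −0.98, −1.46 and −0.76. For ifet-1 they were scpl-4, nos-3 and iffb-1 (0.959 to 0.965), and for laf-1 glp-4, ztf-7 and mca-3 (0.960 to 0.970). cey-3 was most like ndub-8, timm-23 and cri-3 (0.969 to 0.985), the first of which encodes a mitochondrial complex I subunit and the second a mitochondrial import protein, and cey-4 most like ant-1.1, pdhb-1 and plpp-1.1 (0.974 to 0.986), of which ant-1.1 encodes a mitochondrial ADP/ATP carrier. The nearest genes to cey-2 were exos-1, Y39A1A.3 and par-5 (0.938 to 0.953) and to car-1 F28D9.4, pigl-1 and C09G9.1 (0.909 to 0.916).

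Among the 7, cgh-1, ifet-1 and laf-1 varied together (r of 0.84 to 0.86 for each pair), cey-2 and cey-3 had r = 0.77, and ifet-1 and cey-3 ran in opposite directions at −0.67. These correlations are descriptions over 12 libraries that share group differences and the length gaps given above.

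Reads carry no strand, and 2 members overlap a gene on the other strand. cey-4 shares 1 exon base with oxi-1 (log2 fold change −0.35, limma adjusted p = 0.354 under csr-1 RNAi), and laf-1 shares 0 with cox-6B (−0.04, adjusted p = 0.935). laf-1 also shares 77 exon bases with the non-coding gene Y71H2AM.28 on its own strand, which was not analysed here. Next to cey-2, F46F11.7 lies 109 bases away on the same strand and rose under csr-1 RNAi (0.90, limma adjusted p = 0.00807).

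Beyond the 7, 92 genes of 6 lists around stored mRNA were examined. Under csr-1 RNAi 8 were higher and 16 lower, beside 6.98% and 7.8% of all genes tested, with a median log2 fold change of −0.13 against 0.02 for all genes. With the length trend removed the split was 11 higher and 12 lower, and without csr-1 replicate 3 it was 9 and 14. Leaving out empty vector library orig gave 15 calls, empty vector replicate 2 gave 12 and csr-1 replicate 1 gave 14. The counts given for single lists under csr-1 RNAi stand beside the same shares of all genes.

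The cap and poly(A) binding list had 4 of 12 genes lower and 0 higher under csr-1 RNAi, with 4 of 12 at an unadjusted p under 0.05 and 4 lower and 0 higher by DESeq2 and with the length trend removed. edgeR called 2 lower and 0 higher. pab-1, the main cytoplasmic poly(A)-binding protein gene, had 47771 ± 2442 normalised reads under csr-1 RNAi, 80175 ± 15930 under P granule RNAi and 91476 ± 15618 with empty vector. It fell by 0.92 on the log2 scale against empty vector (limma adjusted p = 0.00337) and by 0.73 against P granule RNAi (limma adjusted p = 0.0152). In that second comparison 2 of the 12 were lower by limma, 1 by edgeR and 0 with quantile normalisation, so the pab-1 call there did not hold under that scaling. pab-2 fell by 1.22 (limma adjusted p = 0.000967) and ifg-1, which encodes the scaffold eIF4G, by 0.92 (limma adjusted p = 0.0453).

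Of 12 deadenylation genes 2 fell, ntl-4 (−0.96, limma adjusted p = 0.0322) and let-711 (−0.87, limma adjusted p = 0.0256), both CCR4-NOT subunits, whereas with the length trend removed 1 was lower and 1 higher. Of 13 decapping and 5′ to 3′ decay genes, limma and edgeR called 0 and DESeq2 called 1 higher. Of these 13, 3 had an unadjusted p under 0.05, with no share of all genes given here at that threshold. The decapping list includes patr-1 and edc-3, partners of DDX6 proteins in other species, and its median was 0.13.

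Among 30 other RNA-binding proteins of oocyte and stress granules, 2 rose and 7 fell, and with the length trend removed 4 rose and 4 fell. Those with the largest changes were mip-1 and mip-2, LOTUS-domain scaffolds of germ granules (1.0 and 0.75, limma adjusted p = 8.41e-05 and 0.00593), and ain-1, gld-1 and atx-2 (−0.93, −0.76 and −0.75, limma adjusted p = 0.00469, 0.00395 and 0.0152). gld-1 had 23418 ± 2023 normalised reads under csr-1 RNAi, 34710 ± 5784 under P granule RNAi and 39732 ± 4234 with empty vector, groups ordered as for cgh-1.

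Of 25 maternal mRNAs known to be translationally controlled, 3 rose and 3 fell under csr-1 RNAi, beside 6.98% and 7.8% of all genes. cep-1, the worm p53 gene, cyb-2.1, a cyclin B gene, and zif-1, a ubiquitin ligase subunit gene, rose (0.61, 0.53 and 0.46, limma adjusted p = 0.0355, 0.0224 and 0.041). For cep-1 and cyb-2.1 the csr-1 RNAi and empty vector libraries overlapped. meg-2 and meg-1, which encode disordered P granule proteins, and lin-41 fell (−0.97, −0.62 and −0.55, limma adjusted p = 0.00654, 0.0291 and 0.0455).

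The Y-box and DEAD-box relatives of the members moved in both directions. glh-1, glh-4 and glh-3, Vasa-like helicase genes, rose under csr-1 RNAi, with glh-3 at 3741 ± 326 normalised reads against 2695 ± 261 with empty vector (0.47, limma adjusted p = 0.0166), and inf-1, the eIF4A helicase gene, fell by 0.61 (limma adjusted p = 0.00713). vbh-1, the other DDX3-like helicase gene, had −0.05 and the Y-box gene cey-1 −0.27, and neither passed the test.

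**Figure D5:**
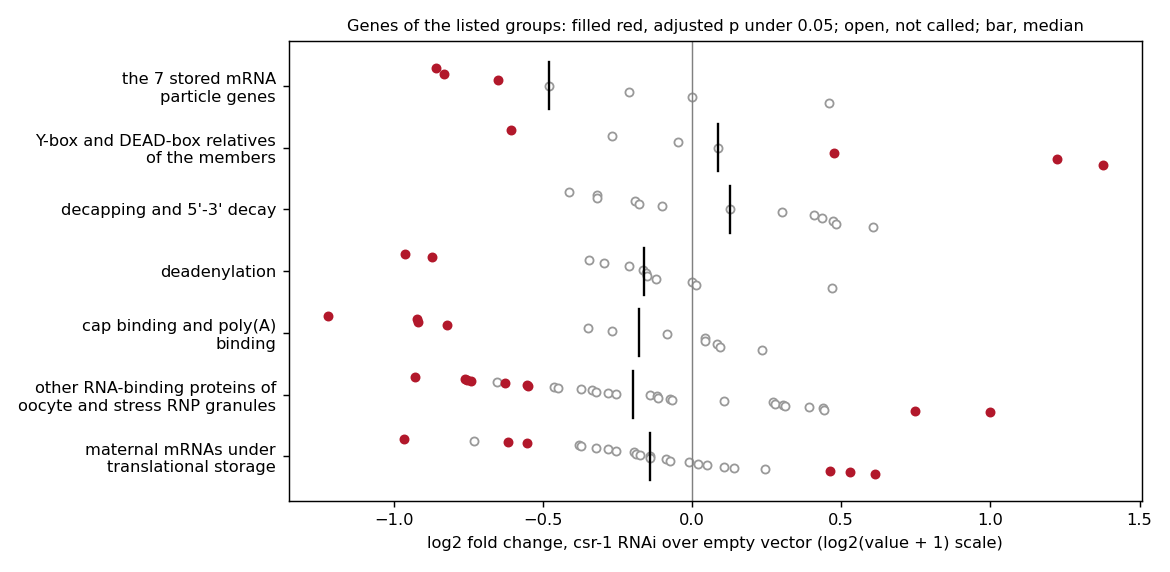
The log2 fold change of csr-1 RNAi over empty vector is given for the 7 genes and for each gene of the 6 lists, with filled red points for adjusted p under 0.05 and a bar at each median. The 7 genes have a median of −0.48 and the lists lie between −0.20 and 0.13.

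Under P granule RNAi the only 1 of these 92 genes called was glh-4, itself a target of the RNAi (−2.22, limma adjusted p = 1.97e-05). 0 were higher by limma, edgeR or DESeq2. At an unadjusted p under 0.05, 6 were higher and 23 lower, and with the length trend removed 2 were higher and 8 lower. No share of all genes at that unadjusted threshold is given here to set beside these counts. Without csr-1 replicate 3, which enters the spread estimate, limma called 6. Against P granule RNAi, csr-1 RNAi had 9 higher and 6 lower (9 and 2 with edgeR), beside 5.25% and 4.27% of all genes. Leaving out P granule library orig or csr-1 replicate 1 left 9 of the 15 calls in number, and leaving out csr-1 replicate 2 left 8. The 15 include 3 P granule RNAi targets or their relatives (glh-1, glh-3 and glh-4), panl-2 (1.12, limma adjusted p = 0.0065) and fbf-2 (0.61, limma adjusted p = 0.0398) higher, and gld-1 (−0.56, limma adjusted p = 0.0245) and pqn-59 (−0.50, limma adjusted p = 0.048) lower.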

How the data were processed

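Libraries of poly(A) RNA were prepared unstranded, per the labels' protocols. The submitters' processing notes list TopHat2 2.0.8b, SAMtools 0.1.18, DESeq 1.1.2.1 and HTSeq 0.5.4p3, and no genome build was found in the sources used here. GEO has 1 sample per group, so the 12 library columns were assigned to groups by name. Their values are a normalised signal, reads over a size factor that the authors computed: after rescaling, all 187378 values above 0 (100%) were whole reads to within 0.01 reads. For each RNAi group the authors also deposited a fold change (the ratio of 2 group means) with a p-value and an adjusted p-value, per the file headers. Unused columns of values numbered 0. Reads without a unique alignment (2.04% to 2.76% per library), ambiguous reads (0.783% to 0.917%) and reads outside genes (0.014% to 0.024%) were among 5 rows left out because they name no gene. WBcel235 gave names, chromosomes, exon lengths and neighbours for 98.99% of gene entries. Libraries of a group always differed beyond counting noise (lowest chi-square over its degrees of freedom 16.41).

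The filter kept genes that reached a value of 10 in 4 or more libraries. limma 3.58.1 under R 4.3.3 (trend, robust) was fitted to log2(value + 1) of all 12 libraries, two-sided, with Benjamini-Hochberg adjustment over every gene kept and a threshold of 0.05. That scale understates changes of low genes. edgeR 4.0.16 (TMM factors unless stated) and DESeq2 1.42.0 were run on recovered reads as alternatives. The procedure was also run on simulated counts, with outcomes not given here. No length trend was built into those counts, so they cannot show its effect on the calls. The other alternatives were pseudocounts of 0.5 and 10, no filter, a filter of 100, TMM factors, quantile normalisation, only the 2 groups compared, each library left out, the libraries named orig left out, the replicate name as a block, and a loess length trend removed per library. The members and gene lists were chosen with earlier results of these data known. Genes named besides the members were up to 3 called genes with the largest change per list, comparison and direction, the 3 genes most like each member, neighbours, and the RNAi targets. Genes of a list named without a call, and gene pairs for ratios, were chosen after their values were seen.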

Additional observations from a re-analysis of the deposited data

Results flagged for a closer look

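In 3 of 21 groups of 4 libraries, 1 library stood apart from the other 3 by more than Dixon's 95% critical value for 4 values (gap over range). Chance gives about 1 in 20 for a single group. The 21 come from 7 genes in the same 12 libraries and are not independent, so 3 of 21 cannot be judged against that rate. For cey-3 with empty vector, replicate 3 was lowest at 25055 normalised reads (gap over range 0.93). For cey-4, P granule RNAi replicate 1 was highest at 25845 normalised reads (0.934) and empty vector replicate 3 was lowest at 14590 (0.897). Empty vector replicate 3 was also the lowest of its group for 6 of the 7 genes, laf-1 excepted. Without it the csr-1 log2 fold change of cey-4 was −0.59 (limma adjusted p = 0.0315) and that of cey-3 was 0.36 (limma adjusted p = 0.334).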

How the results depend on the processing

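Of 675 pairs of a result and an alternative setting, 608 kept direction and side of the threshold, or a count within 1.5 times. Quantile normalisation changed most. For csr-1 RNAi against empty vector it gave log2 fold changes of −0.58 for cgh-1 and −0.50 for ifet-1, both no longer called, 0.06 for car-1, with the sign turned, and 0.32 for cey-2, 0.72 for cey-3 and −0.46 for cey-4, all called. Against P granule RNAi it gave −0.29 for cgh-1, no longer called, 0.31 for car-1, 0.01 for ifet-1 and 0.31 for cey-2, all with the sign turned, and 0.42 for cey-3, −0.57 for cey-4 and −0.50 for laf-1, all called. DESeq2 called cey-4 in both csr-1 comparisons (−0.48 and −0.54), laf-1 under P granule RNAi (−0.52) and 92 genes under P granule RNAi (7 with limma). With the length trend removed, against empty vector, laf-1 lost its csr-1 call (−0.52), cey-4 gained one (−0.55), cey-2 turned sign under csr-1 RNAi (−0.11) and P granule RNAi (−0.07), and cey-4 turned under P granule RNAi (−0.04). Fitting only csr-1 RNAi and P granule RNAi gave 503 called genes (1080 with all libraries), 9 of the list genes, and −0.58 for cgh-1, not called. Without the 3 libraries named orig, cey-3 was called under csr-1 RNAi (0.67), 4 genes were called under P granule RNAi, and csr-1 RNAi against P granule RNAi had 411 called genes, 8 list genes and −0.54 for cgh-1, not called. The cause of these changes was not tested.

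Leaving out 1 library gave 931 to 2159 called genes for csr-1 RNAi against empty vector, 6 to 194 for P granule RNAi and 565 to 1984 between the RNAi groups. The lowest came without empty vector replicate 2 and csr-1 replicate 1, and 194 and 1984 came without csr-1 replicate 3; counts were also over 1.5 times lower without empty vector replicate 1 (1061) and csr-1 replicates 1 (1077) and 2 (1073) in the first comparison, and without P granule replicates 2 (716) and 3 (682) and csr-1 replicate 2 (614) in the last. List genes called ranged over 12 to 30, 1 to 6 and 8 to 20. For csr-1 RNAi against empty vector cey-2 ranged from −0.11 to 0.10, cey-3 from 0.28 to 0.64 and cey-4 from −0.59 to −0.43. Under P granule RNAi cey-2 ranged from −0.03 to 0.17 and cey-4 from −0.09 to 0.11. Between the RNAi groups the ranges were −0.65 to −0.51 for cgh-1, −0.17 to 0.02 for car-1, −0.20 to 0.03 for cey-2, −0.11 to 0.25 for cey-3 and −0.59 to −0.39 for cey-4.

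Same-named libraries of different groups had correlated deviations from −0.467 to 0.663 over the 3 pairs of groups. Between csr-1 RNAi and P granule RNAi they were 0.192, 0.45 and 0.663 for orig, 1 and 2 and −0.001 for 3. The correlations did not exceed 0.1 in every pair and the labels tie the names to nothing shared, so the names were not taken to pair the libraries. With the replicate name as a block, cey-4 was called between the RNAi groups (−0.53, limma adjusted p = 0.0465), and 2082, 6 and 1284 genes were called in the 3 comparisons. The least abundant member, laf-1, had at least 2947 recovered reads in every library, and whether depth limited the calls was not tested.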
